A study of Mus musculus with 18 samples.

Results

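Fibroblasts of the mouse heart are told apart by a small set of marker genes, and 10 of them are described here across age and genotype: Pdgfra, Tcf21, Dpt, Gsn, Scara5, Lamc3, Pi16, Dpep1, Meox1 and Cpxm2. They were taken by name from the 49315 genes counted, with symbols from GENCODE M21. The libraries came from the mid wall of the left ventricle of male mice on the 129SVE background. The KO mice lack MLP, the muscle LIM protein encoded by Csrp3, a protein of the cardiomyocyte Z-disc, and such mice develop dilated cardiomyopathy. The design has 3 KO and 3 WT libraries at each of 3, 6 and 10 weeks of age, 18 libraries in 6 groups. KO and WT name the libraries by their labels throughout, and every direction given here rests on those labels. No label says how animals were divided among libraries, so the p-values measure the spread between these libraries.

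Cardiac fibroblasts make and turn over the collagen-rich matrix between cardiomyocytes. Most arise from the epicardium, and at rest they differ by position and by the genes they express rather than by shape. Fibroblasts around vessels and in the adventitia carry one set of surface and secreted proteins, those between myocytes another, and cells activated by injury carry yet another. Pdgfra, Tcf21, Dpt and Gsn are used as general markers of these cells, Scara5, Lamc3, Pi16, Dpep1 and Cpxm2 as markers of subsets, and Meox1 as a regulator of activation. The RNA was taken from whole tissue, so fewer fibroblasts of a type and less RNA per fibroblast cannot be told apart in anything that follows.

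Library totals ran from 14980968 to 23001047 counts, and each member was counted between 9 times, for Lamc3, and 28010 times, for Gsn, in a single library. Mitochondrially encoded genes took 7.50% to 10.9% of the counts in KO and 11.0% to 16.8% in WT. Csrp3, counted over the whole gene, had 1134 to 3416 CPM, the count scaled to the TMM-adjusted library total, in KO and 951 to 1486 CPM in WT, so its counts were not lower where the label says knockout. At each age Csrp3 was higher in KO without overlap. It had 1134 to 2703 CPM in KO and 951 to 1111 CPM in WT at 3 weeks. The ranges were 1792 to 2483 and 1230 to 1486 CPM at 6 weeks, and 1501 to 3416 and 1001 to 1124 CPM at 10 weeks. Counts over the whole gene do not read the deleted part alone. Ptprn2 had 0 to 0.491 CPM in KO, 0 to 0.0493 CPM in WT at 10 weeks and 7.62 to 17.5 CPM in WT at 3 and 6 weeks, which sets the WT libraries at 10 weeks apart from the younger WT libraries. Tpm3-rs7 had 0.111 to 1.03 CPM in KO, 0.168 to 0.937 CPM in WT at 10 weeks and 15.0 to 31.8 CPM in WT at 3 and 6 weeks. Kcnj14 had 1.08 to 12 CPM in KO, 0.592 to 1.05 CPM in WT at 10 weeks and 32.8 to 63.0 CPM in WT at 3 and 6 weeks. In all 3 genes the KO libraries were also below the WT libraries at 3 and 6 weeks. The labels give 129SVE for all libraries and no litter or colony, so a difference of that kind cannot be told apart from age within WT or from genotype. This limit bears on every comparison with WT, at 3 and 6 weeks as well as at 10 weeks. It bears also on differences of the genotype effect between ages. Myl4, an atrial myosin light chain, exceeded 50 CPM in 3 libraries, with 118 CPM in KO replicate 3 at 3 weeks, 436 CPM in KO replicate 3 at 6 weeks and 1145 CPM in KO replicate 1 at 10 weeks. The summed CPM of 6 adipocyte markers reached 110 in the second of these and 113 in the third, against 5.10 or less in every other library. Results are given with and without these 3 libraries wherever that changed a call.

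All 10 members passed the filter on low counts, in all libraries together and in the 9 KO or the 9 WT libraries alone. With each group filtered alone, Lamc3 did not pass in WT at 6 weeks, where it had 9, 21 and 12 counts. By edgeR's quasi-likelihood test with Benjamini-Hochberg adjustment over 15778 genes, 2 members were higher and 4 lower in KO at 3 weeks, where 8.65% of all genes were called higher and 6.68% lower. At 6 weeks 5 members were higher and 2 lower, beside 11.0% and 12.8% of all genes. At 10 weeks 4 were higher and 2 lower, beside 14.6% and 14.7% of all genes. Without the 3 libraries rich in Myl4 the counts were 1 higher and 3 lower at 3 weeks, 5 and 2 at 6 weeks, and 4 and 2 at 10 weeks. The median log2 fold change of the members was -0.03 at 3 weeks, 0.25 at 6 weeks and 0.26 at 10 weeks, against 0.00, 0.00 and -0.03 over all genes. The members therefore had no shared direction, and Scara5 and Dpt stood on one side of 0 while Lamc3, Meox1, Cpxm2 and Pi16 stood on the other.

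**Figure D1:**
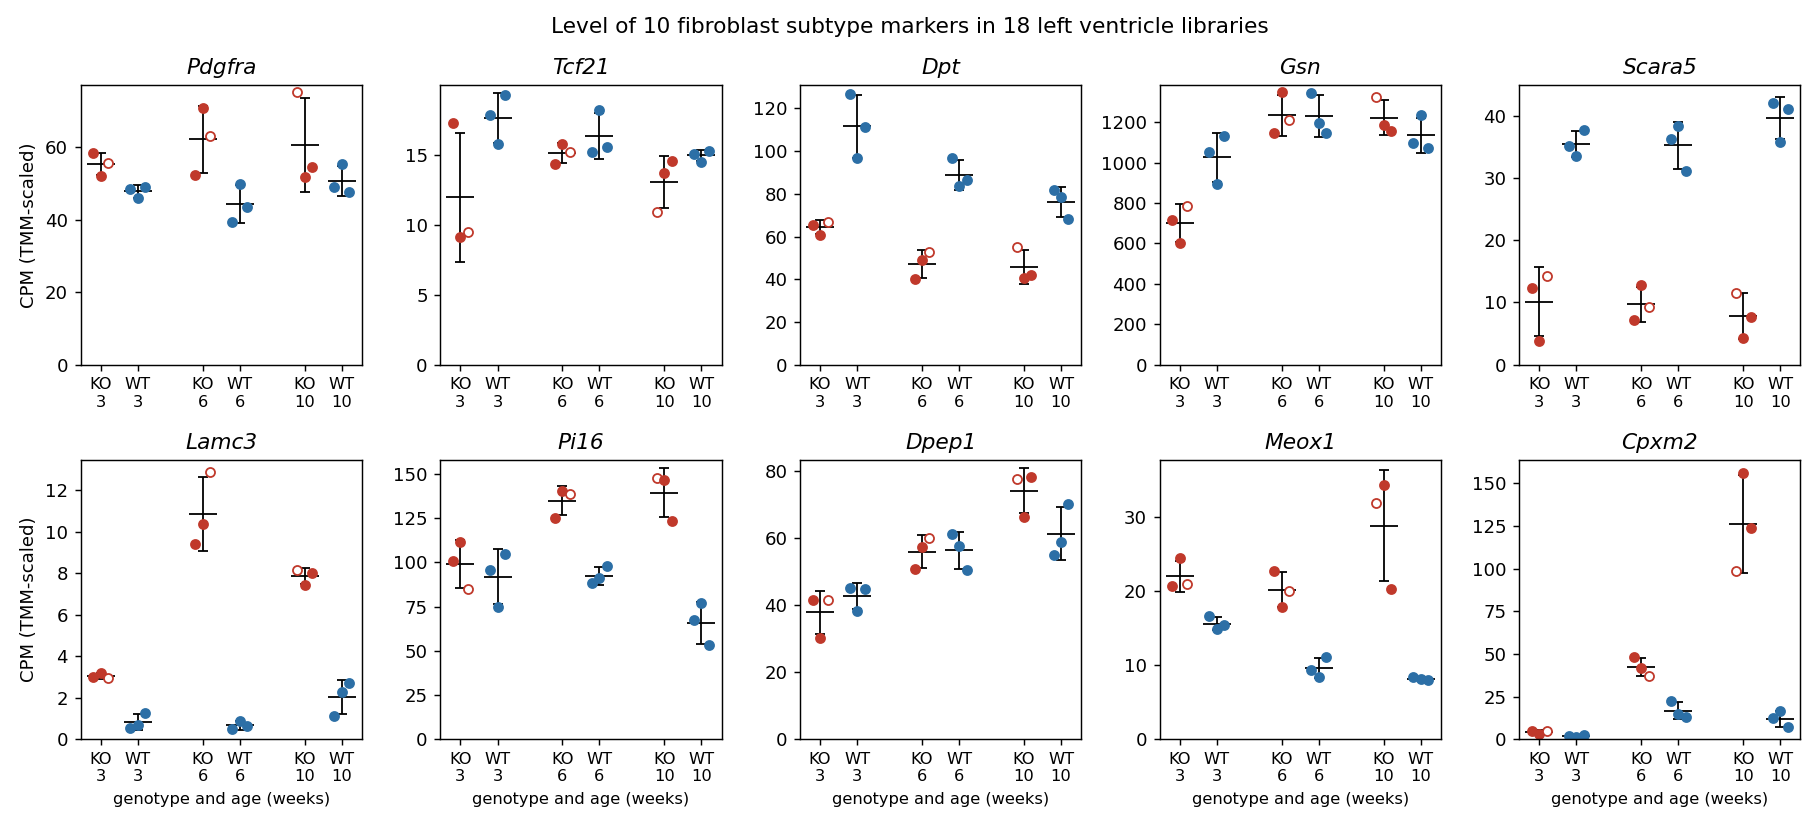
Level of each marker in CPM (y axis, linear, from 0) in KO (red) and WT (blue) libraries at 3, 6 and 10 weeks. Points are single libraries, open points the 3 libraries with over 50 CPM of Myl4, and the bars give the mean ± SD (n = 3). Scara5 lies between 3.81 and 14.3 CPM in KO and between 31.1 and 42.0 CPM in WT, and Cpxm2 reaches 156 CPM in KO at 10 weeks.

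Values of all 9 KO libraries lay on one side of all 9 WT libraries for 4 members: Lamc3 and Meox1 higher, Scara5 and Dpt lower. Over all genes this held for 5.89%. At single ages the values did not overlap for 7 members at 3 weeks, 7 at 6 weeks and 6 at 10 weeks, beside 30.5%, 44.2% and 40.5% of all genes.

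RefSeq promoters (GRCm38.p6) were at hand for 7 of the 10 members. They were read over 250 bases upstream of the start and searched on both strands for 6 short motifs. A TATA box was read as TATAAA. A GC box was read as GGGCGG. An E-box, the kind of site bound by basic helix-loop-helix factors, was read as CAGCTG. The letters for AP-1 were TGANTCA. Those for TEAD factors were GGAATG. A homeobox core was read as TAATTA. The 3 printed here belong to a member that was lower in KO at every age (Dpt), a member whose difference grew with age (Pi16) and the member with the largest change with age (Cpxm2). Capitals mark the matches, and no motif searched overlaps another.
Dpt, chr1:164796413-164796662, plus strand: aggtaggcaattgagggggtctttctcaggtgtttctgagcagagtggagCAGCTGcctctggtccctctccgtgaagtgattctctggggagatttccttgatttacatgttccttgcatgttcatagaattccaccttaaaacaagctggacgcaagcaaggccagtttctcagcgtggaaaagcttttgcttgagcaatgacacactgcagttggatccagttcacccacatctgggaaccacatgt
Pi16, chr17:29318632-29318881, plus strand: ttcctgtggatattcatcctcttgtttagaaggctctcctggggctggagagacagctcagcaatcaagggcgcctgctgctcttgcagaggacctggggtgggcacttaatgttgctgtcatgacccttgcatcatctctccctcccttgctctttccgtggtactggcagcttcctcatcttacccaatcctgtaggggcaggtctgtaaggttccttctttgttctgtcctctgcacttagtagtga
Cpxm2, chr7:132154742-132154991, minus strand: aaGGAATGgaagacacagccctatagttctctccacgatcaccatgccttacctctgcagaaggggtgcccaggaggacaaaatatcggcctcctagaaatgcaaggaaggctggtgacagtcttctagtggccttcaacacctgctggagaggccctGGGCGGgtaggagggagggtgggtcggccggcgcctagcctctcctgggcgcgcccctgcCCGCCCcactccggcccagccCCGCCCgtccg

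The promoters differ in composition and in what they hold. The Dpt window is 48.8% G and C and has 1 E-box, 200 bases before the start, and a match to that motif stands in 13.0% of all 32851 mouse promoters of the same length. The Pi16 window is 52.4% G and C and holds none of the 6 motifs. The Cpxm2 window is 64.0% G and C and holds 3 GC boxes, a motif found in 32.7% of all promoters, and 1 TEAD match, found in 12.6%. No member's window held a TATA box, an AP-1 match or the homeobox core, which stand in 12.4%, 6.75% and 4.84% of all promoters. Gsn, with 3 annotated starts, had at least 1 GC box before each and an E-box before 2 of them, and Dpep1 had 1 TEAD match.

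Pdgfra (ENSMUSG00000029231, chromosome 5, 75152292 to 75198215 on GRCm38) encodes the alpha receptor for platelet-derived growth factors and is the usual surface marker of cardiac fibroblasts. It had 58.3, 52.0 and 55.7 CPM in KO and 48.5, 45.8 and 48.9 CPM in WT at 3 weeks. Its values at 6 weeks were 52.3, 70.8 and 63.1 CPM in KO and 39.4, 49.9 and 43.5 CPM in WT. Its values at 10 weeks were 75.3, 51.6 and 54.6 CPM in KO and 49.0, 55.4 and 47.6 CPM in WT. The groups did not overlap at 3 and 6 weeks, and at 10 weeks the highest KO value was in the library richest in Myl4. Pdgfra rose in KO at 6 weeks, by 0.49 on the log2 scale (SE 0.13, adjusted p = 0.0105). That call was lost without WT replicate 1 (adjusted p = 0.0618) or KO replicate 2 (adjusted p = 0.0761). The log2 fold change was 0.21 at 3 weeks (SE 0.13, adjusted p = 0.314) and 0.25 at 10 weeks (SE 0.13, adjusted p = 0.169), and the difference between ages was not called for any pair of ages. No change with age was called in either genotype.

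Tcf21 (ENSMUSG00000045680, chromosome 10, 22817279 to 22820128), the basic helix-loop-helix factor that epicardial cells need to become fibroblasts, was counted at 9.13 to 19.3 CPM throughout. At 3 weeks it had 17.3, 9.13 and 9.45 CPM in KO and 17.9, 15.8 and 19.3 CPM in WT. KO replicate 1 lay within the WT range and the other KO libraries below it. The log2 fold change at 3 weeks was -0.55 (SE 0.18, adjusted p = 0.0453), but this call held in 1 of the 6 fits that left out a library. The adjusted p was 0.126, 0.0584 and 0.119 without WT replicate 1, 2 and 3, and 0.206 and 0.186 without KO replicate 2 and 3. It was 0.163 without the Myl4-rich library, 0.0593 under scaling by library totals and 0.131 in a fit of these groups alone. At 6 and 10 weeks Tcf21 had log2 fold changes of -0.11 (SE 0.18, adjusted p = 0.711) and -0.19 (SE 0.19, adjusted p = 0.475), with overlapping values. The genotype effect at 10 against 3 weeks was 0.36 (SE 0.26, adjusted p = 0.484), and 0.73 without KO replicate 1 at 3 weeks (adjusted p = 0.0395).

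Dpt (ENSMUSG00000026574, chromosome 1, 164796644 to 164824266) encodes dermatopontin, a small matrix protein that binds decorin and collagen. It had 65.5, 60.7 and 67.0 CPM in KO and 127, 96.8 and 111 CPM in WT at 3 weeks. At 6 weeks it had 40.1, 49.1 and 52.8 CPM in KO and 96.7, 83.6 and 86.3 CPM in WT. At 10 weeks it had 54.9, 40.7 and 41.9 CPM in KO and 82.0, 78.5 and 68.2 CPM in WT. Every KO library was below every WT library of any age, by a narrow margin between the highest KO value, at 3 weeks, and the lowest WT value, at 10 weeks. Dpt fell in KO by 0.79 at 3 weeks (SE 0.13, adjusted p = 0.00024), by 0.91 at 6 weeks (SE 0.13, adjusted p = 2.53e-05) and by 0.73 at 10 weeks (SE 0.13, adjusted p = 0.000216) on the log2 scale. All 3 calls held when any 1 library was left out, and no difference of this effect between ages was called (adjusted p from 0.637 to 0.903).

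Gsn (ENSMUSG00000026879, chromosome 2, 35256380 to 35307892) encodes gelsolin, which severs and caps actin filaments and is made by many cell types besides fibroblasts. It had 717, 601 and 783 CPM in KO and 1050, 895 and 1133 CPM in WT at 3 weeks, with no overlap. At 6 weeks it ran from 1147 to 1347 CPM in KO and from 1144 to 1347 CPM in WT, and at 10 weeks from 1157 to 1324 CPM in KO and from 1072 to 1234 CPM in WT. Gsn fell in KO by 0.55 on the log2 scale at 3 weeks (SE 0.12, adjusted p = 0.00261), and its log2 fold change was 0.01 at 6 weeks (SE 0.12, adjusted p = 0.978) and 0.11 at 10 weeks (SE 0.12, adjusted p = 0.532). Under scaling by library totals alone the 10-week value took the opposite sign, at -0.03. The genotype effect was higher at 10 than at 3 weeks by 0.66 (SE 0.16, adjusted p = 0.0202), a call lost without WT replicate 3 at 10 weeks (adjusted p = 0.0514) and under scaling by library totals (adjusted p = 0.0565).

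Scara5 (ENSMUSG00000022032, chromosome 14, 65666403 to 65764826), a scavenger receptor that takes up ferritin in the mouse and marks a subset of resting fibroblasts, was the member that fell furthest in KO. It had 12.3, 3.81 and 14.3 CPM in KO and 35.1, 33.5 and 37.7 CPM in WT at 3 weeks. The 6-week values were 7.20, 12.8 and 9.25 CPM in KO and 36.2, 38.4 and 31.1 CPM in WT. The 10-week values were 11.5, 4.23 and 7.65 CPM in KO and 42.0, 35.8 and 41.1 CPM in WT. The highest KO library was below the lowest WT library by more than 2-fold, and the KO libraries were spread more widely than the WT libraries in relation to their mean at every age. Scara5 fell in KO by 1.80 at 3 weeks (SE 0.37, adjusted p = 0.00507), by 1.85 at 6 weeks (SE 0.38, adjusted p = 0.00234) and by 2.36 at 10 weeks (SE 0.39, adjusted p = 0.000391) on the log2 scale, to 28.8%, 27.7% and 19.5% of the WT level. The calls held without any 1 library, and without the Myl4-rich libraries the values were -2.12, -1.81 and -2.71. No change of Scara5 with age was called in KO or WT, nor was a difference of the genotype effect between ages (adjusted p from 0.612 to 0.976).

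Lamc3 (ENSMUSG00000026840, chromosome 2, 31887291 to 31946539) encodes the gamma 3 chain of laminin, a basement membrane protein. It was the least abundant member per unit length in WT at every age. It had 3.02, 3.19 and 2.95 CPM in KO and 0.534, 0.708 and 1.27 CPM in WT at 3 weeks. At 6 weeks it had 9.39, 10.3 and 12.8 CPM in KO and 0.495, 0.897 and 0.630 CPM in WT. At 10 weeks it had 8.14, 7.44 and 8.0 CPM in KO and 1.13, 2.30 and 2.73 CPM in WT. Every KO library was above every WT library, and the WT values rested on 9 to 47 counts each. Lamc3 rose in KO by 1.90 at 3 weeks (SE 0.32, adjusted p = 0.000276), by 3.97 at 6 weeks (SE 0.31, adjusted p = 6.84e-09) and by 1.94 at 10 weeks (SE 0.28, adjusted p = 1.64e-05) on the log2 scale.

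The excess of Lamc3 in KO was largest at 6 weeks. The genotype effect at 6 weeks exceeded that at 3 weeks by 2.07 (SE 0.45, adjusted p = 0.0233), where 0.494% of all genes were called higher and 1.10% lower. That call was lost without WT replicate 3 at 3 weeks (adjusted p = 0.0584), without WT replicate 1, WT replicate 3 or KO replicate 3 at 6 weeks (adjusted p = 0.076, 0.0672 and 0.0589), and without the Myl4-rich libraries (adjusted p = 0.0768), and by limma voom the adjusted p was 0.0554. From 6 to 10 weeks the genotype effect fell by 2.03 (SE 0.42, adjusted p = 0.00577), where 3.12% of all genes were called higher and 2.63% lower, and this held without any 1 library. Within genotypes, Lamc3 rose in KO from 3 to 6 weeks by 1.83 (SE 0.26, adjusted p = 9.95e-05) and in WT from 6 to 10 weeks by 1.56 (SE 0.33, adjusted p = 0.00512).

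Pi16 (ENSMUSG00000024011, chromosome 17, 29318877 to 29329413) encodes peptidase inhibitor 16, a member of the CAP superfamily that marks adventitial fibroblasts found in many tissues. It had 101, 112 and 84.8 CPM in KO and 95.8, 74.6 and 105 CPM in WT at 3 weeks. The values at 6 weeks were 125, 140 and 139 CPM in KO and 88.1, 91.0 and 97.8 CPM in WT. Those at 10 weeks were 148, 147 and 123 CPM in KO and 67.4, 76.9 and 53.0 CPM in WT. The groups overlapped at 3 weeks and parted at 6 and 10 weeks. Pi16 had a log2 fold change of 0.11 at 3 weeks (SE 0.14, adjusted p = 0.643), and rose in KO by 0.55 at 6 weeks (SE 0.14, adjusted p = 0.00561) and by 1.08 at 10 weeks (SE 0.14, adjusted p = 5.05e-06). The genotype effect was higher at 10 than at 3 weeks by 0.97 (SE 0.20, adjusted p = 0.00476), where 2.82% of all genes were called higher and 2.94% lower, and this held without any 1 library. At 10 against 6 weeks it was 0.53 (SE 0.20, adjusted p = 0.108), with an adjusted p of 0.0476 without KO replicate 3 at 10 weeks.

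Dpep1 (ENSMUSG00000019278, chromosome 8, 123186242 to 123201812), a membrane dipeptidase that splits leukotriene D4, was called for age in KO but not in WT, and at no age for genotype. No difference of its genotype effect between ages was called. Dpep1 had 41.7, 30.3 and 41.7 CPM in KO and 45.3, 38.2 and 44.8 CPM in WT at 3 weeks. At 6 weeks it had 50.8, 57.5 and 60.0 CPM in KO and 61.3, 57.6 and 50.4 CPM in WT. At 10 weeks it had 77.8, 66.4 and 78.4 CPM in KO and 55.0, 58.9 and 70.3 CPM in WT. The genotypes overlapped at each age. The log2 fold change of KO over WT was -0.17 (SE 0.13, adjusted p = 0.418), -0.01 (SE 0.13, adjusted p = 0.973) and 0.27 (SE 0.13, adjusted p = 0.123) at 3, 6 and 10 weeks, and the 6-week value changed sign under scaling by library totals.

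Meox1 (ENSMUSG00000001493, chromosome 11, 101877510 to 101894374) encodes a homeobox factor that drives fibroblast activation in the mouse heart. It had 20.7, 24.4 and 20.9 CPM in KO and 16.6, 14.9 and 15.4 CPM in WT at 3 weeks. The 6-week values of Meox1 were 22.8, 17.9 and 20.0 CPM in KO and 9.34, 8.46 and 11.1 CPM in WT. The 10-week values of Meox1 were 31.9, 34.3 and 20.3 CPM in KO and 8.38, 8.18 and 7.96 CPM in WT. All KO libraries were above all WT libraries, and at 10 weeks the KO libraries were spread widely while the WT libraries lay close together. Meox1 rose in KO by 1.07 at 6 weeks (SE 0.16, adjusted p = 5.02e-05) and by 1.82 at 10 weeks (SE 0.17, adjusted p = 5.5e-08) on the log2 scale. The genotype effect was higher at 10 than at 3 weeks by 1.33 (SE 0.23, adjusted p = 0.00128), which held without any 1 library.

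The difference of Meox1 at 3 weeks was close to the threshold, at 0.49 (SE 0.16, adjusted p = 0.0397). It held in 1 of 6 fits that left out a library. The adjusted p was 0.0804, 0.122 and 0.0801 without WT replicate 1, 2 and 3, 0.144 and 0.0556 without KO replicate 2 and 3, and 0.0641 without the Myl4-rich library. From 6 to 10 weeks the genotype effect of Meox1 differed by 0.75 (SE 0.23, adjusted p = 0.0605), and by 0.96 without KO replicate 3 at 10 weeks (adjusted p = 0.00251), the KO library with the lowest Meox1 at that age. By DESeq2 it was 0.78 (adjusted p = 0.0313).

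Cpxm2 (ENSMUSG00000030862, chromosome 7, 132032687 to 132154739), a secreted protein of the metallocarboxypeptidase family, had the widest range of the 10 in proportion, from 1.37 to 156 CPM. It had 4.81, 2.86 and 4.68 CPM in KO and 2.18, 1.37 and 2.28 CPM in WT at 3 weeks. At 6 weeks it had 48.1, 42.0 and 37.2 CPM in KO and 22.6, 15.0 and 13.1 CPM in WT. At 10 weeks it had 98.9, 156 and 124 CPM in KO and 12.5, 16.6 and 7.09 CPM in WT. KO was above WT without overlap at each age, while KO at 3 weeks was below WT at 6 and 10 weeks. The log2 fold change was 1.11 at 3 weeks (SE 0.37, adjusted p = 0.0543), and Cpxm2 rose in KO by 1.33 at 6 weeks (SE 0.28, adjusted p = 0.00228) and by 3.38 at 10 weeks (SE 0.30, adjusted p = 5.47e-07). At 3 weeks the adjusted p was 0.0435 without KO replicate 2, 0.00368 by DESeq2, 0.0492 under scaling by library totals, 0.0384 in a fit of these groups alone and 3.05e-07 without the filter on low counts. The genotype effect at 10 weeks exceeded that at 6 weeks by 2.05 (SE 0.39, adjusted p = 0.00661) and that at 3 weeks by 2.28 (SE 0.47, adjusted p = 0.01), and both held without any 1 library.

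**Figure D2:**
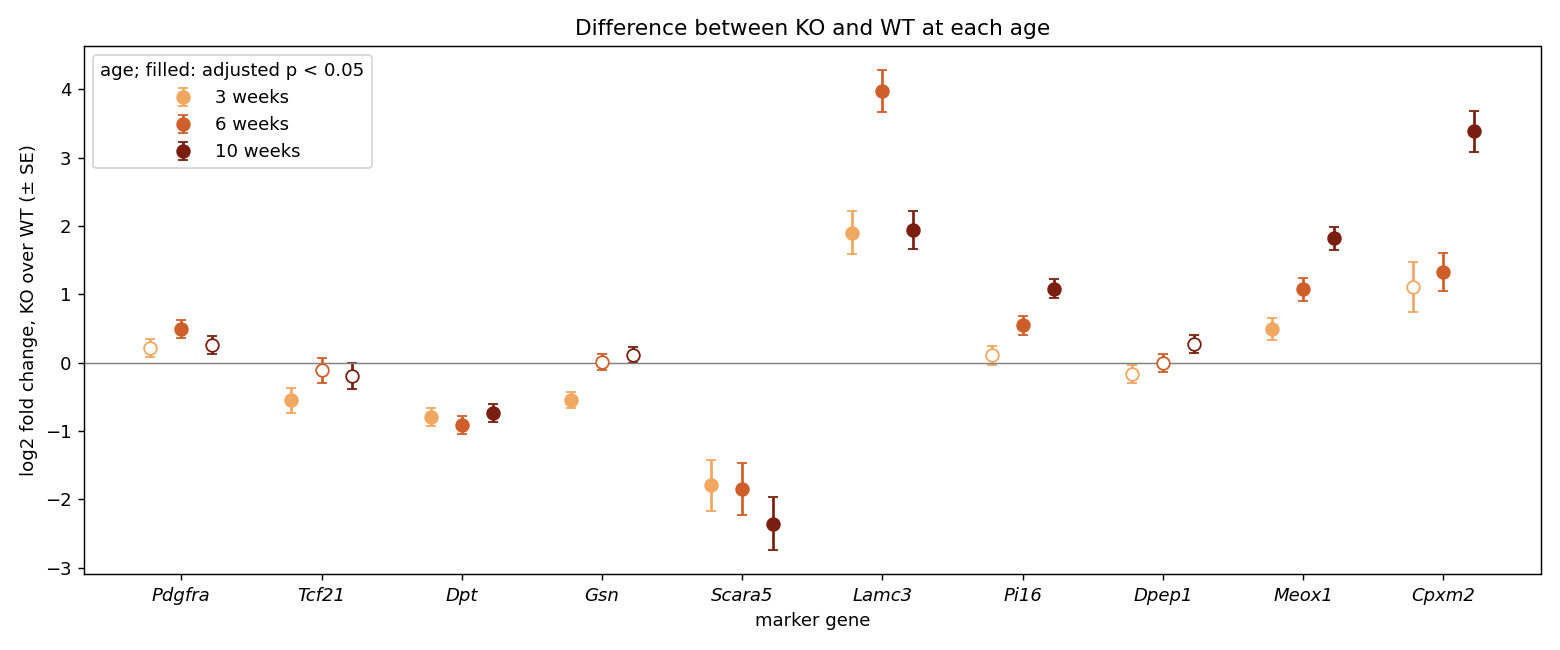
log2 fold change of KO over WT (y axis, ± SE from edgeR) for each marker at 3, 6 and 10 weeks, filled where the adjusted p was under 0.05. Scara5 and Dpt are below 0 at all 3 ages, Lamc3 is highest at 6 weeks (3.97), and Pi16, Meox1 and Cpxm2 are highest at 10 weeks (1.08, 1.82 and 3.38).

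Age was then followed within each genotype. From 3 to 6 weeks, 5 members rose and 1 fell in KO, where 5.34% of all genes were called higher and 6.25% lower. In WT 1 rose and 1 fell, where 2.94% of all genes were called higher and 2.24% lower. Cpxm2 rose in both, by 3.35 in KO (SE 0.31, adjusted p = 1.08e-05) and by 3.13 in WT (SE 0.34, adjusted p = 0.000198), and the difference between these steps was 0.22 (SE 0.47, adjusted p = 0.867). Gsn rose in KO by 0.82 (SE 0.12, adjusted p = 9.95e-05) and Dpep1 by 0.56 (SE 0.13, adjusted p = 0.00694), while in WT their changes were 0.26 (adjusted p = 0.195) and 0.40 (adjusted p = 0.0765). The difference of these steps between genotypes was not called, with adjusted p = 0.0845 for Gsn and 0.729 for Dpep1. For Gsn the adjusted p of that difference was 0.0308 by DESeq2 and 0.0365 without the filter on low counts. The rise of Dpep1 in WT had an adjusted p of 0.0473 without that filter and 0.0470 in a fit of these groups alone.

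Other calls between 3 and 6 weeks were lost when single libraries were left out. In KO, Dpt fell by 0.44 (adjusted p = 0.0299), a call lost without replicate 1 or 3 at 3 weeks (adjusted p = 0.0645 and 0.0933) or replicate 1 or 2 at 6 weeks (adjusted p = 0.17 and 0.0648) and under scaling by library totals (adjusted p = 0.053). Pi16 rose in KO by 0.44 (adjusted p = 0.0388), a call lost without any KO library but replicate 2 at 3 weeks, with adjusted p from 0.0557 to 0.187. The adjusted p of Pi16 was 0.0515 under scaling by library totals and 0.289 without the Myl4-rich libraries. Meox1 fell in WT by 0.70 (SE 0.16, adjusted p = 0.0163), lost without WT replicate 1 or 2 at 3 weeks (adjusted p = 0.0725 and 0.0558) or WT replicate 1 or 2 at 6 weeks (adjusted p = 0.0801 and 0.0656). Tcf21 changed by 0.33 in KO (adjusted p = 0.275), and by 0.70 without KO replicate 1 at 3 weeks (adjusted p = 0.00461).

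From 6 to 10 weeks, 3 members were called in KO, all higher, where 6.52% of all genes were called higher and 6.14% lower. In WT 1 rose and 1 fell, where 3.64% of all genes were called higher and 5.12% lower. Cpxm2 rose in KO by 1.57 (SE 0.27, adjusted p = 0.00171), and in WT its log2 change was -0.48 (SE 0.28, adjusted p = 0.344). Dpep1 rose in KO by 0.40 (adjusted p = 0.0452) and Meox1 by 0.51 (adjusted p = 0.0366), but only 1 and 2 of the 6 fits that left out a library kept these calls. Without a library the adjusted p ran up to 0.14 for Dpep1, reached without KO replicate 1 at 6 weeks, and up to 0.178 for Meox1, reached without KO replicate 2 at 10 weeks. Without the Myl4-rich libraries, Cpxm2 alone was called in KO. Pi16 fell in WT by 0.49 (adjusted p = 0.032), a call kept in 1 of 6 such fits and lost most clearly without WT replicate 3 at 10 weeks (adjusted p = 0.185).

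Because the markers are read here against each other, each was also divided by Pdgfra within the same library, per kilobase of exon, which removes the library's scaling. Scara5 was at a log2 ratio to Pdgfra of -1.94 ± 0.97, -1.98 ± 0.20 and -2.33 ± 0.49 in KO and of 0.29 ± 0.05, 0.39 ± 0.19 and 0.36 ± 0.24 in WT at 3, 6 and 10 weeks (SD, n = 3 each). In WT, Scara5 was thus above Pdgfra per unit length in all 9 libraries, and in KO it was below in all 9. Dpt was at 2.76 ± 0.05, 2.15 ± 0.14 and 2.15 ± 0.06 in KO and at 3.76 ± 0.15, 3.55 ± 0.28 and 3.13 ± 0.13 in WT. Neither marker overlapped between the 9 KO and 9 WT libraries on this scale, which held for 7.28% of all other genes.

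Pi16 kept pace with Pdgfra in both genotypes at 3 and 6 weeks, at log2 ratios of 2.16 ± 0.25 and 2.46 ± 0.14 in KO and 2.26 ± 0.20 and 2.40 ± 0.17 in WT (SD, n = 3 each). At 10 weeks it was at 2.55 ± 0.27 in KO and 1.69 ± 0.18 in WT, without overlap. Meox1 relative to Pdgfra was at 0.84 ± 0.21, 0.56 ± 0.39 and 1.09 ± 0.44 in KO and at 0.56 ± 0.06, -0.03 ± 0.31 and -0.46 ± 0.11 in WT at 3, 6 and 10 weeks. Cpxm2 crossed Pdgfra in KO, from -2.67 ± 0.35 at 3 weeks to 0.57 ± 0.37 at 6 weeks and 2.17 ± 0.61 at 10 weeks. In WT it was at -3.54 ± 0.36, -0.31 ± 0.54 and -1.03 ± 0.53. Tcf21 was at a log2 ratio to Pdgfra of 0.76 ± 0.45, 1.01 ± 0.15 and 0.83 ± 0.50 in KO and 1.59 ± 0.10, 1.60 ± 0.06 and 1.28 ± 0.16 in WT. These ratios did not overlap at 3 and 6 weeks, where its CPM did, and overlapped at 10 weeks.

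**Figure D3:**
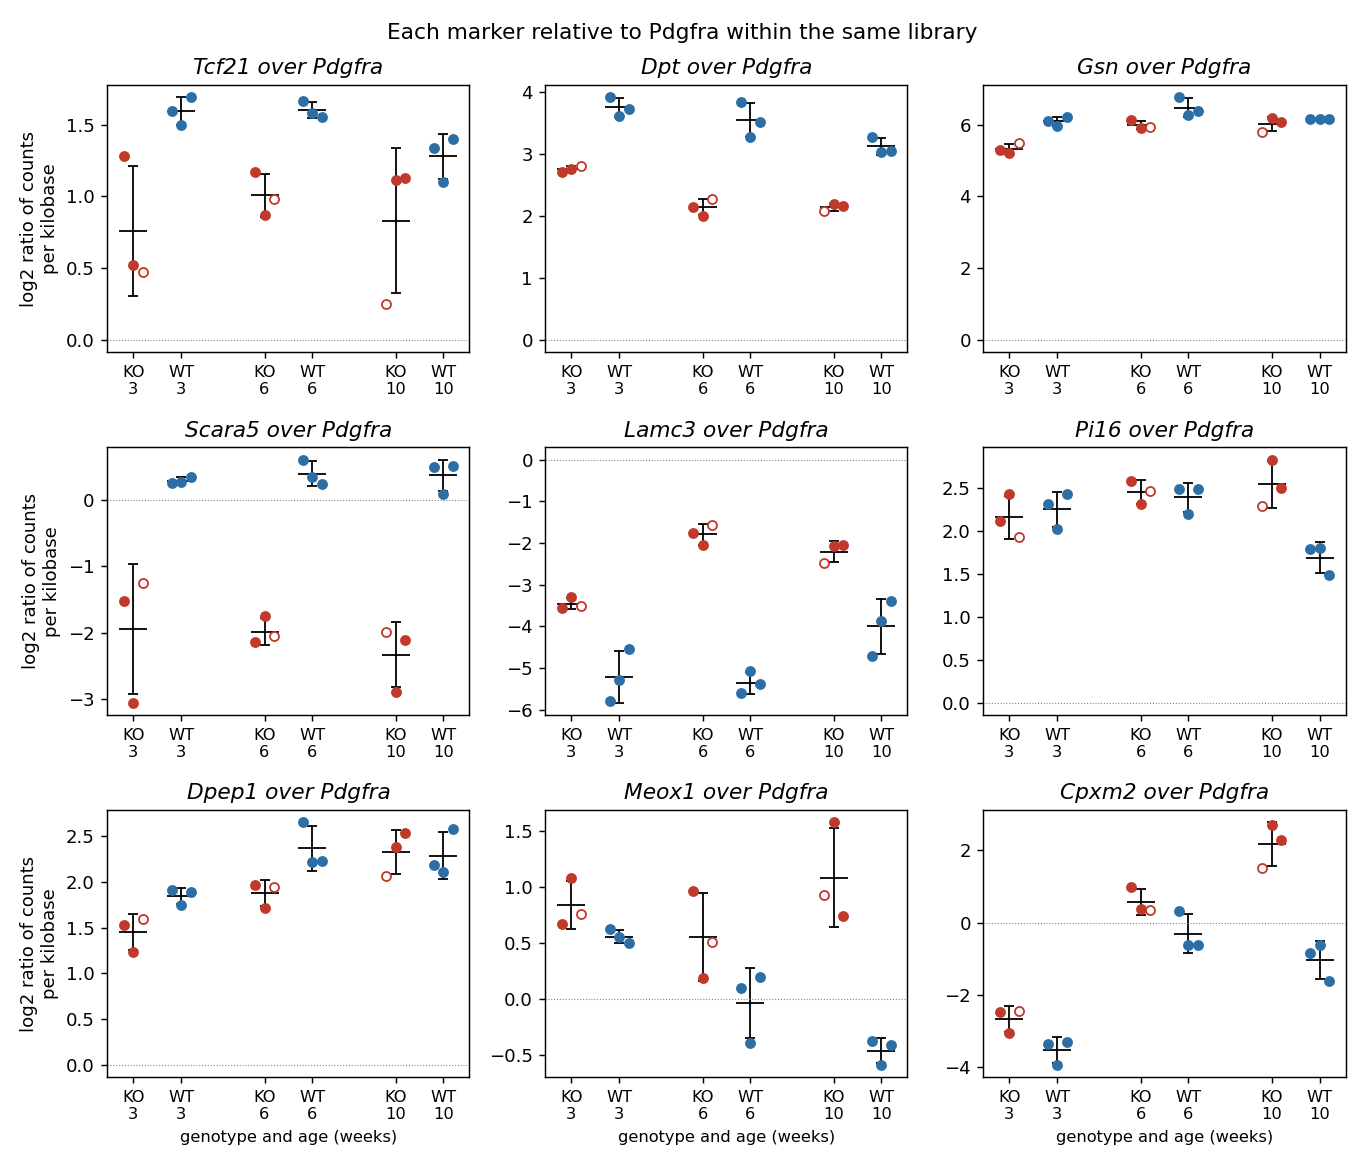
log2 ratio of each marker to Pdgfra in the same library, both per kilobase of exon (y axis, scales differ between panels), in KO (red) and WT (blue) at 3, 6 and 10 weeks. Points are libraries, open points those with over 50 CPM of Myl4, bars the mean ± SD, and the dotted line marks equal levels. Scara5 lies below the line in all KO libraries and above it in all WT libraries.

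Over all 45 pairs of markers, the log2 ratio within a library did not overlap between the 9 KO and 9 WT libraries in 16 pairs. Among all pairs of the 15778 genes this held for 6.07%, and the members' pairs share members, so the 16 are not separate results. Of these pairs 8 included Scara5, 5 Dpt, 4 Lamc3 and 0 Cpxm2. The pair of Scara5 and Lamc3 was furthest apart, with a log2 ratio of counts of -0.81 to 2.28 in KO and 3.91 to 6.19 in WT. Dpt over Pi16, a general marker over an adventitial one, ran from -1.85 to -0.34 in KO and from -0.18 to 0.40 in WT. Scara5 over Pi16 ran from -5.12 to -2.57 in KO and from -1.65 to -0.37 in WT.

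The order of levels per unit length, in CPM per kilobase of exon, changed with genotype. Gsn was first in every group, at 222 ± 29.2, 391 ± 32.3 and 387 ± 28.1 in KO and 325 ± 38.3, 389 ± 33.3 and 359 ± 27.8 in WT at 3, 6 and 10 weeks (SD, n = 3 each). Dpt was second in WT at each age and in KO at 3 weeks, while in KO at 6 and 10 weeks Pi16 was second. Scara5 ranked 10 in KO at 6 and 10 weeks, level with Lamc3 within their spread, and ranked 6 in WT at both ages. Cpxm2 ranked 9 in WT at all 3 ages, and 9, 6 and 4 in KO at 3, 6 and 10 weeks. In KO at 10 weeks Pi16, Dpep1, Cpxm2 and Dpt, in that order, each overlapped the next, at 34.9 ± 3.46, 29.9 ± 2.72, 27.3 ± 6.21 and 26.6 ± 4.57.

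**Figure D4:**
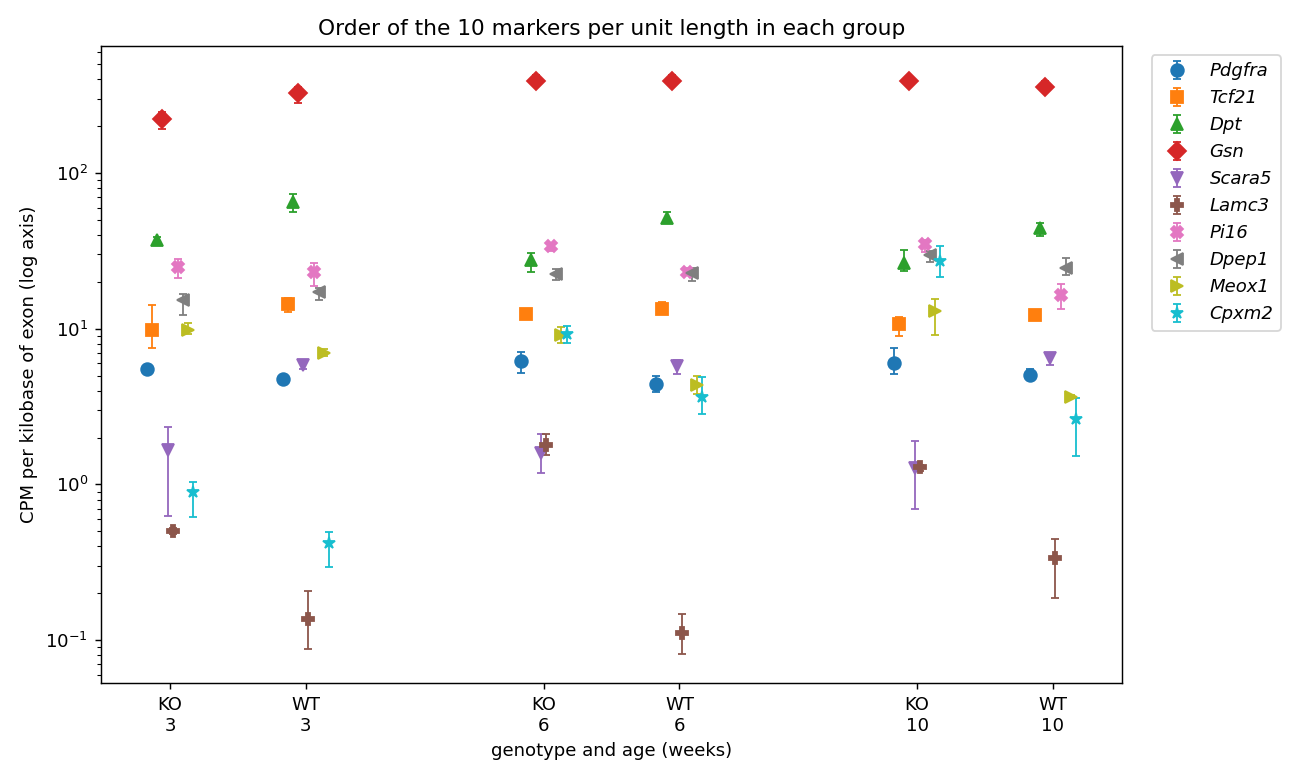
Level of the 10 markers per kilobase of exon (y axis, CPM per kilobase, log axis) in KO and WT at 3, 6 and 10 weeks. Symbols are means of 3 libraries and bars run from the lowest to the highest library. Cpxm2 climbs to 27.3 in KO at 10 weeks and is at 2.61 in WT. Scara5 is at 1.28 in KO and at 6.50 in WT at 10 weeks, with no change with age called in either.

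After subtracting group means from log2 CPM, 32 of the 45 pairs of markers (71.1%) had a correlation above 0 over the 18 libraries, with a median of 0.15. Over all pairs of the 15778 genes 49.9% were above 0. The 45 pairs share members, and no test was made of this difference. The highest was between Scara5 and Dpep1 (r = 0.75), and the lowest between Dpep1 and Meox1 (r = -0.50). KO replicate 2 at 3 weeks, the lowest for Scara5 at 3.81 CPM, was also the lowest of all 18 for Dpep1 at 30.3 CPM, Gsn at 601 CPM and Tcf21 at 9.13 CPM. These points share library depth and RNA source, and 3 libraries a group leave 12 degrees of freedom.

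For each member the 3 genes closest in pattern were those with the highest Pearson r of log2 CPM over the 18 libraries, among 10309 genes averaging 5 CPM or more. For Scara5 these were Aqp7 (r = 0.96), Slc40a1 (r = 0.95) and Gpt (r = 0.94), with r = 0.87, 0.87 and 0.74 after group means were subtracted. For Cpxm2 they were Bdh1 (r = 0.96), Cidea (r = 0.95) and Prnp (r = 0.95), with r = 0.38, 0.53 and 0.44 within groups. For Lamc3 they were Slc12a4, H2-Q7 and Ace (r from 0.94 to 0.96), for Dpt Snn, Egflam and Abhd18 (r from 0.95 to 0.96), for Pi16 Anxa4, Tmem176a and Osbpl5 (r from 0.93 to 0.95) and for Meox1 Emp1, Carhsp1 and Pfkp (r = 0.94 each). After group means were subtracted, the r of these 3 partners was 0.76, 0.16 and 0.63 for Lamc3 and 0.81, 0.74 and 0.31 for Dpt. It was 0.70, 0.67 and 0.75 for Pi16 and 0.67, 0.65 and 0.57 for Meox1. The remaining members had looser partners by r over the 18 libraries, from r = 0.83 for Tcf21 and Chst14 to r = 0.92 for Dpep1 and Arc. After group means were subtracted they were not looser throughout. The r of the 3 partners was then 0.68, 0.73 and 0.78 for Pdgfra and 0.78, 0.84 and 0.90 for Tcf21. It was 0.77, 0.26 and 0.68 for Gsn and 0.74, 0.48 and 0.11 for Dpep1.

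Other genes of cardiac fibroblasts are given here as counts of genes called, to be read beside the shares over all genes, which were 8.65% higher and 6.68% lower at 3 weeks, 11.0% and 12.8% at 6 weeks, and 14.6% and 14.7% at 10 weeks. Of 20 further general fibroblast genes, 5 were higher and 2 lower in KO at 3 weeks, 11 and 2 at 6 weeks, and 7 and 6 at 10 weeks, with medians of 0.05, 0.67 and 0.17. Mgp, matrix Gla protein, rose in KO by 1.87 at 6 weeks (adjusted p = 3.93e-09), to 206 ± 13.9 CPM in KO against 56.6 ± 4.05 CPM in WT. Thy1, a surface glycoprotein, fell at the same age by 1.51 (adjusted p = 1.98e-05). The summed level of the 20 genes was higher in every KO library than in every WT library of the same age. At 3 weeks it was 2891 to 3596 CPM in KO and 2535 to 2809 CPM in WT. At 6 weeks it was 2851 to 3704 CPM in KO and 1634 to 1862 CPM in WT. At 10 weeks it was 2052 to 2333 CPM in KO and 1532 to 1725 CPM in WT. The sum of the 10 members, in which Gsn was the largest term, went the other way at 3 weeks. It was then 899 to 1085 CPM in KO and 1217 to 1519 CPM in WT. At 6 weeks the members summed to 1518 to 1763 CPM in KO and 1494 to 1716 CPM in WT. At 10 weeks they summed to 1629 to 1841 CPM in KO and 1386 to 1582 CPM in WT.

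Of 18 adventitial and universal fibroblast genes, the group that Pi16 belongs to, 1 was higher and 2 lower in KO at 3 weeks, 5 and 4 at 6 weeks, and 8 and 1 at 10 weeks, with medians of 0.02, 0.21 and 0.36. The 1 higher at 3 weeks and the 1 lower at 10 weeks are below the shares over all genes. The summed level of the 18 genes was higher in KO without overlap at each age. It was 1286 to 1410 CPM in KO and 1080 to 1142 CPM in WT at 3 weeks. The ranges were 966 to 1137 and 869 to 939 CPM at 6 weeks, and 859 to 1031 and 733 to 803 CPM at 10 weeks. Mfap5, a microfibril protein, rose by 1.94 (adjusted p = 1.49e-06) and Creb5, a transcription factor, by 2.44 (adjusted p = 0.000797) at 10 weeks. Penk, which encodes proenkephalin, fell at 3, 6 and 10 weeks, with log2 fold changes of -2.46, -3.22 and -2.55 and adjusted p = 0.000217, 1.43e-06 and 5.94e-06.

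Of 20 genes of activated and matrix-secreting fibroblasts, 19 were tested, and 5 were higher and 2 lower at 3 weeks, 9 and 2 at 6 weeks, and 9 and 1 at 10 weeks, with medians of 0.49, 0.96 and 0.86. The lower counts at 6 and 10 weeks are below the shares over all genes. The summed level of the 20 genes was lower in KO without overlap at 3 and 10 weeks. It was 747 to 970 CPM in KO and 997 to 1046 CPM in WT at 3 weeks. At 10 weeks it was 345 to 539 CPM in KO and 587 to 861 CPM in WT. At 6 weeks the ranges overlapped, at 523 to 586 CPM in KO and 477 to 562 CPM in WT. Cilp, a matrix protein of the cartilage intermediate layer, rose by 2.30, 4.31 and 3.40, and Thbs4, a thrombospondin, by 2.34 at 6 weeks and 2.86 at 10 weeks. Acta2, the smooth muscle actin that also marks myofibroblasts, fell at each age, with log2 fold changes of -0.94, -2.23 and -2.39, to 114 ± 35.2 CPM in KO against 597 ± 137 CPM in WT at 10 weeks. Meox1 was higher in KO at the ages where this actin was lower, and a link between them was not tested.

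Among 6 PDGF ligands and receptors, Pdgfc, a ligand of the Pdgfra product, rose in KO by 1.99 at 6 weeks (adjusted p = 0.000868) and 2.35 at 10 weeks (adjusted p = 0.000118). Pdgfa, another such ligand, fell by 0.90 at 10 weeks (adjusted p = 0.000885). At 3 weeks Pdgfa had the smallest p of the list, with a log2 fold change of 0.24 and adjusted p = 0.412. Among 12 close relatives of the markers, 11 were tested, with medians of 0.32, 0.28 and 0.36 at 3, 6 and 10 weeks. At 3 weeks 2 were higher and 1 lower, beside 8.65% and 6.68% of all genes. At 6 weeks 4 were higher and 0 lower, beside 11.0% and 12.8% of all genes. At 10 weeks 6 were higher and 2 lower, beside 14.6% and 14.7% of all genes. More relatives were thus called higher than lower at each age. Among those called lower, Meox2, the paralog of Meox1, fell by 0.78 at 3 weeks (adjusted p = 0.0205) and by 0.93 at 10 weeks (adjusted p = 0.00376). It was not called lower at 6 weeks.

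Markers of other cells were counted in the same way, beside 6.68%, 12.8% and 14.7% of all genes called lower at 3, 6 and 10 weeks. Where 1 gene of 10 was called, that is near the share over all genes. The summed level of 10 epicardial and mesothelial markers was 33.3 to 93.7 CPM in KO and 13.7 to 43.4 CPM in WT, and 2, 1 and 7 of them rose at 3, 6 and 10 weeks, where 8.65%, 11.0% and 14.6% of all genes were called higher. The sum of 10 endothelial markers was 914 to 1492 CPM in KO and 1360 to 1706 CPM in WT, and 4 of them were lower at 6 weeks and 3 at 10 weeks. The sum of 10 macrophage markers was 185 to 314 CPM in KO and 239 to 394 CPM in WT, with 1 lower at 3 weeks, 2 higher and 2 lower at 6 weeks, and 1 higher and 3 lower at 10 weeks. The sum of 10 pericyte and smooth muscle markers was 646 to 968 CPM in KO and 794 to 1046 CPM in WT, with 2 higher and 2 lower at 3 weeks, 2 and 3 at 6 weeks, and 2 and 4 at 10 weeks. The 10 cardiomyocyte markers summed to 90264 to 126980 CPM in KO and 72946 to 102882 CPM in WT, with 5 higher and 1 lower at 3 weeks, 2 and 3 at 6 weeks, and 3 and 1 at 10 weeks. With ages pooled, the ranges of all these sums overlapped between KO and WT, but within single ages several did not. Macrophage sums were at most 314, 295 and 234 CPM in KO at 3, 6 and 10 weeks. In WT they were at least 330, 304 and 239 CPM. Endothelial sums were lower in KO without overlap at 6 and 10 weeks. Epicardial and cardiomyocyte sums were higher in KO without overlap at 3 and 10 weeks. Pericyte and smooth muscle sums overlapped at each age.

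The 6 atrial markers summed to 1997 to 17445 CPM in KO and 196 to 475 CPM in WT. Nppa, a natriuretic peptide of the atrium that the stressed ventricle also makes, carried most of that sum, at 2753 ± 1163, 10035 ± 3051 and 13778 ± 3563 CPM in KO and 248 ± 76.4, 450.0 ± 27.8 and 243 ± 55.1 CPM in WT at 3, 6 and 10 weeks (SD, n = 3 each). Of the 5 atrial markers tested, Nppa was called higher at every age and Dkk3 at 10 weeks. Myl4 was at 1.71 to 9.98 CPM in the other 6 KO libraries and at 2.26 to 23.2 CPM in WT. The part that any of these cells had in the members' differences was not tested. Genes that overlap a member on either strand and were found by symbol had at most 0.467 CPM in any library, save Fgfr2. Fgfr2 overlaps Cpxm2 on the same strand and had at most 1.87 CPM. For 3 more overlapping loci, at Tcf21, Pi16 and Cpxm2, no counts were found under their symbols, so their level is not known.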

How the data were processed

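Total RNA from frozen left ventricular tissue was extracted with a Qiagen RNeasy Plus Universal kit and made into NEBNext Ultra II libraries, per the labels' protocols. Trimmomatic 0.36, STAR 2.5.2b, featureCounts, Subread 1.5.2 and GRCm38 are named in the submitters' processing notes. For the annotation release, the strand setting and multimapping reads, the choice made is not given in the sources used here. What the authors deposited were raw counts per Ensembl gene, without normalization. Of 49315 identifiers, 49056 matched GENCODE M21, which gave symbols, and exon lengths are those in the deposited tables.

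Differences were tested with edgeR 4.0.16 under R 4.3.3 (filterByExpr, minimum count 10, minimum total 15, leaving 15778 genes; TMM scaling; 1 robust quasi-likelihood fit over all 18 libraries; common dispersion 0.0252). Calls used a Benjamini-Hochberg adjusted p under 0.05 over all genes. The SE of a log2 fold change was taken from that change and its F statistic. CPM are TMM-scaled, and log2 CPM for correlations had a prior count of 2. Alternatives used limma 3.58.1 (voom), DESeq2 1.42.0, other scalings, no filter, left-out libraries, only the compared groups and a replicate block. No library was a copy of another of its group, since replicates differed by a chi-square of at least 7.30 per degree of freedom.

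All members were named whatever their values. Of every other list the rule named up to 2 called genes in each direction with the smallest p, or the single gene with the smallest p where none was called. Not every gene so named is reported here. Members and lists were chosen with earlier results of these data known.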

Additional observations from a re-analysis of the deposited data

Results flagged for a closer look

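Effects of genotype that differed between ages by an interaction test in edgeR are given as differences of log2 fold changes, the older age minus the younger. For Lamc3 the difference was 2.07 at 6 against 3 weeks and -2.03 at 10 against 6 weeks. For Cpxm2 it was 2.05 at 10 against 6 weeks and 2.28 at 10 against 3 weeks. At 10 against 3 weeks it was 0.66 for Gsn, 0.97 for Pi16 and 1.33 for Meox1. Single outlying libraries were not tested for in these groups of 3.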

How the results depend on the processing

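For the 10 members in 10 comparisons, 871 of 900 values under the alternatives that left out no single library kept their side of the threshold. Of the rest, 11 gained a call and 18 lost one. With single libraries left out, 730 of 780 kept their side of the threshold, 6 gained and 44 lost a call. No called value changed sign, but values that were not called could, as some did under scaling by library totals. The number of members called for the genotype effect at 6 against 3 weeks was 1, but 2 without the count filter, 2 by DESeq2, 0 by limma voom and 0 without the Myl4-rich libraries. For KO at 10 against 6 weeks it was 3, but 1 with library totals alone, 1 without the Myl4-rich libraries and 1 with only the compared groups fitted. Leaving out 1 library gave 4 to 6 members at 3 weeks, 6 to 7 at 6 weeks and 6 to 6 at 10 weeks for KO against WT. It gave 0 to 2, 2 to 4 and 3 to 5 for the genotype effect at 6 against 3, 10 against 6 and 10 against 3 weeks. It gave 4 to 6 and 1 to 2 for KO, and 1 to 2 and 1 to 2 for WT, from 3 to 6 and from 6 to 10 weeks. Where a group was left with 2 libraries, the fit assumed that they vary like the rest. With a replicate block the calls were the same in every comparison except KO against WT at 3 weeks, where 5 members were called in place of 6, Tcf21 being lost (adjusted p = 0.0546). The numbers do not pair the libraries: same-numbered libraries correlated between -0.22 and 0.11 in their deviations, 0 of 15 group pairs had every value above 0.1, and 6 of 18 libraries correlated best with their own number. Scaling by library totals shifted the members' log2 fold changes together, by a median of -0.14 for KO against WT at 10 weeks and -0.22 for KO at 10 against 6 weeks. Depth limits Lamc3 in WT most, with 9 to 47 counts a library.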
